A study of Arabidopsis thaliana with 3 samples.

Results

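A group of 8 transcription factor genes known as targets of the microRNAs miR319 and miR159 was followed in immature inflorescences of Arabidopsis thaliana. They are TCP2 (AT4G18390), TCP3 (AT1G53230), TCP4 (AT3G15030), TCP10 (AT2G31070) and TCP24 (AT1G30210), targets of miR319, and MYB33 (AT5G06100), MYB65 (AT3G11440) and MYB101 (AT2G32460), targets of miR159. They were taken by gene identifier, with no measured value in the rule, and all 8 were found among the 26810 genes listed in any library. A GMUCT library (n = 1) and RNA-seq libraries 1 and 2 (n = 2) were compared. All 3 came from dcl1-7 plants, in which DCL1, the enzyme that releases microRNAs from their precursors, is mutated. Buds were harvested at about 4 weeks of age from untreated plants grown with 16 h of light and 8 h of dark. Libraries were strand-specific, made from polyA RNA and read over 50 nt. GMUCT reads the 5′ ends of polyA RNAs without a cap, which are left when a transcript is cut or loses its cap, whereas RNA-seq reads the polyA mRNA itself. No other genotype was analysed here, and the values describe the dcl1-7 mutant and not the effect of the mutation.

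CIN-type TCP proteins move cells of leaves and petals from division towards differentiation, and miR319 limits them by guiding the cutting of their mRNAs. GAMYB proteins act in anthers, where MYB33 and MYB65 together support the tapetum, and miR159 keeps them low in vegetative tissue. The 2 microRNA families are related in sequence, and plant microRNAs cut a paired mRNA opposite their bases 10 and 11. The 3′ piece of a cut mRNA has no cap and keeps its polyA tail, which is the kind of end that GMUCT reads. The deposited tables give 1 value for each gene, so ends at a target site could not be told apart from other uncapped ends of the same gene.

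The mature microRNAs are shown first, because the target sites below are matches to miR319a and miR159a. They were read from the TAIR10.1 genome at the RefSeq annotation of the precursor genes and are written 5′ to 3′ with the seed, bases 2 to 8, in capitals.
miR319a and miR319b: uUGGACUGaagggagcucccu
miR319c: uUGGACUGaagggagcuccuu
miR159a: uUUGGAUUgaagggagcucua
miR159b: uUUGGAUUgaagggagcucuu
miR159c: uUUGGAUUgaagggagcuccu
The miR319 members share the seed UGGACUG and the miR159 members share UUGGAUU. When miR159a is moved by 1 base against miR319a, 3 of the 20 overlapping bases differ. The mature miR319a lies at chr4:12353109-12353129 on the plus strand and miR159a at chr1:27713234-27713254 on the minus strand.

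The target site of each gene is shown because the genes are known as targets of miR319 or miR159. Each is the best ungapped 21-nt match of the mRNA to miR319a (TCP genes) or miR159a (MYB genes). It is written 5′ to 3′ as DNA of the mRNA strand, with bases that do not form a Watson-Crick pair with the microRNA in capitals.
TCP2, chr4:10163402-10163422, minus strand: CAggGgGAcccttcagtccaa
TCP24, chr1:10628989-10629009, minus strand: TAggGgGAcccttcagtccaa
TCP3, chr1:19850522-19850542, minus strand: GAggGgTCcccttcagtccaT
TCP4, chr3:5063300-5063320, plus strand: GAggGgTCcccttcagtccaG
TCP10, chr2:13221210-13221230, minus strand: aAggGgTAcccttcagtccaG
MYB33, chr5:1839579-1839599, plus strand: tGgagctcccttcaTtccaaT
MYB65, chr3:3604151-3604171, plus strand: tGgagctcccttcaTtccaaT
MYB101, chr2:13783168-13783188, minus strand: tagagctTccttcaaAccaaa
Counted from the 5′ end of miR319a, all 5 TCP sites were mismatched at positions 14 and 20, had a G:U pair at position 17 and were fully paired from position 2 to position 13. The TCP3 and TCP4 sites differed by 1 base, and so did those of TCP2 and TCP24. The sites of MYB33 and MYB65 were identical, with mismatches at positions 1 and 7 of miR159a and a G:U pair at position 20. MYB101 had the closest match of the 8, with a mismatch at position 6 and a G:U pair at position 14.

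Each site lay inside the coding sequence and within a single exon of the TAIR10.1 transcript with the longest coding sequence. It fell in exon 2 of 2 in TCP2, exon 1 of 2 in TCP3, TCP4 and TCP10, exon 2 of 3 in TCP24, MYB33 and MYB101, and exon 3 of 4 in MYB65. With a mismatch counted as 1 and a G:U pair as 0.5, the TCP sites scored between 3.5 (TCP10) and 4.5 (TCP2, TCP3 and TCP24). Of 27444 protein-coding genes, 67 (0.244%) held a window that scored 4.5 or less against miR319a. The MYB sites scored 1.5 (MYB101) and 2.5 (MYB33 and MYB65), and 9 genes (0.0328%) held a window of 2.5 or less against miR159a. The same sites of MYB33 and MYB65, shifted by 1 base, scored 3.0 against miR319a, a closer match than any of the 5 TCP sites. A match describes the letters and does not show that a site is cut. A cut at the site would leave 3′ pieces of 490 nt (TCP2) to 760 nt (TCP4) for the TCP genes, and of 879 nt (MYB101) to 930 nt (MYB33) for the MYB genes.

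**Figure D1:**
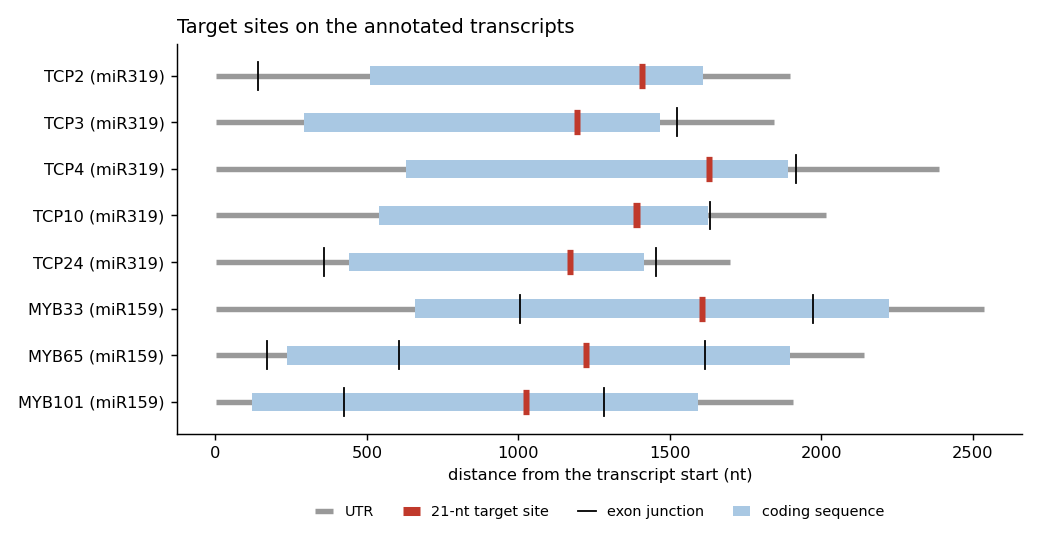
Position of the miR319 or miR159 target site on the annotated transcript of each gene, in nt from the transcript start; blue bars are coding sequence, grey lines UTR, black ticks exon junctions and red marks the 21-nt site. Every site lies in the later part of the transcript, from 53.9% (MYB101) to 74.2% (TCP2) of its length.

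The libraries listed 26731 genes in GMUCT and 23809 and 22824 genes in RNA-seq. Levels are given as RPKM, reads scaled by gene length and read total, so RNA-seq levels of different genes can be set side by side. GMUCT reads ends, and its ratio to RNA-seq fell with transcript length over all genes, as given below. The part of length in the order, shares and sums of genes in GMUCT was not tested. The spacing of low values gave approximate totals of 19400000 reads for GMUCT and 18200000 and 8660000 for RNA-seq. Each total was the one that brought these low values closest to whole reads, and 33.1% to 34.6% of them then lay within 0.1 of a whole read. The chance share of 20% holds for a total fixed in advance, so these shares do not test the totals. Of the floral markers, AP3 had 166.39 RPKM in GMUCT and 89.31 and 89.20 RPKM in RNA-seq. PI had 96.72 RPKM in GMUCT and 113.51 and 116.29 RPKM in RNA-seq, and SEP3 had 50.49 against 136.25 and 141.16 RPKM. AP1 had 32.15 RPKM in GMUCT and 64.29 and 54.08 RPKM in RNA-seq, and AG had 7.54 against 14.29 and 15.58 RPKM. LFY was low, with 0.67 RPKM in GMUCT and 1 and 1.63 RPKM in RNA-seq. Of the root markers, COBL9 had 1.30 RPKM in GMUCT and 1.74 and 1.15 RPKM in RNA-seq, WOX5 had 0.60 RPKM in GMUCT and 0.06 and 0.13 RPKM in RNA-seq, and RHD6 and EXP7 had 0.56 and 0.83 RPKM in GMUCT and no value in RNA-seq. The mutated gene DCL1 had 7.57 RPKM in GMUCT and 16.04 and 15.18 RPKM in RNA-seq, which does not check the genotype label.

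In RNA-seq the order by mean level was TCP4, TCP3, TCP10, TCP2, MYB101, TCP24, MYB33 and MYB65. TCP10 and TCP2 overlapped between libraries 1 and 2, and every other pair of neighbours in that order was apart, MYB101 and TCP24 by the least. The log2 difference of library 2 minus library 1 lay between -0.20 (MYB33) and 0.18 (TCP4), within the SD of 0.22 over all tested genes. In GMUCT the order was TCP4, TCP3, TCP2, TCP10, TCP24, MYB101, MYB65 and MYB33, so the 3 MYB genes were the lowest.

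**Figure D2:**
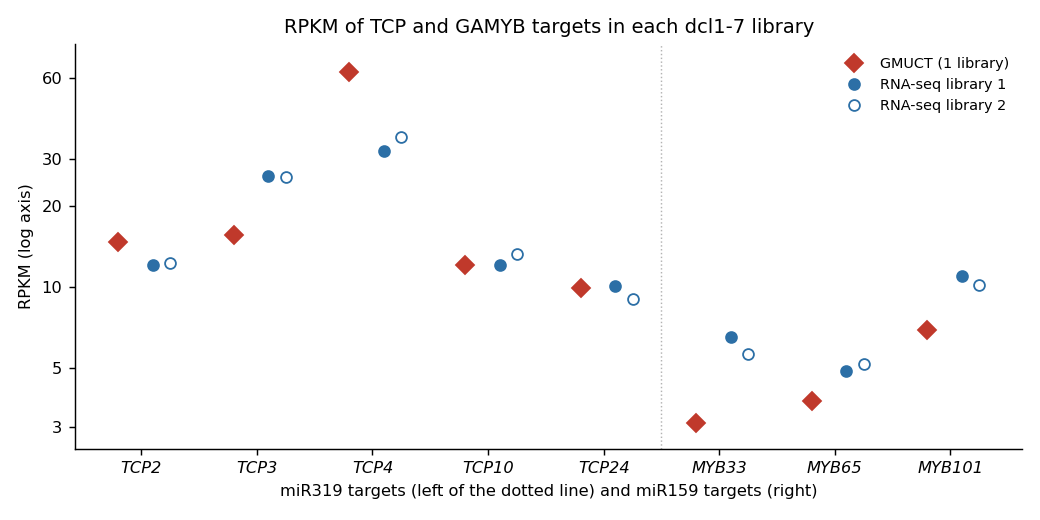
RPKM (log axis) of each target gene in the GMUCT library (red diamonds) and in RNA-seq libraries 1 (filled blue circles) and 2 (open blue circles). GMUCT lies above both RNA-seq libraries for TCP2 and TCP4, below both for TCP3, TCP10 and the 3 MYB genes, and between them for TCP24.

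The comparison of GMUCT with RNA-seq sets the uncapped ends of each target against its mRNA level. Of the 8 targets, TCP4 was higher in GMUCT, TCP3, MYB33 and MYB101 were lower, and TCP2, TCP10, TCP24 and MYB65 did not pass the test. All 8 passed the filter on low values, a mean of GMUCT and RNA-seq of at least 1 RPKM. Ratios are on the log2(RPKM + 0.5) scale and were tested with limma, with Benjamini-Hochberg adjustment over all 20214 tested genes at 0.05. Over all tested genes 32.1% were called higher, 36.9% lower and 69.0% in either direction, so the 4 calls among 8 targets are not a larger share than over all genes. With each library centred on its median the all-gene counts were 8111 higher and 7304 lower, against 6489 and 7468 without centring. In RPKM, GMUCT was above both RNA-seq libraries for 2 targets, against 45.0% of tested genes, and below both for 5, against 50.2%. The median ratio of the 8 was -0.22, and that of all tested genes was -0.07. A 2-fold excess of GMUCT over each RNA-seq library was reached by no target and by 19.9% of tested genes. A 2-fold deficit was reached by no target and by 17.3%. The test has 1 residual degree of freedom and takes the spread of the single GMUCT library to be that of RNA-seq, and an exact permutation test of 1 library against 2 cannot go below p = 0.333. Nothing in the labels ties the RNA-seq libraries to separate plants, and the spread behind the p-values may be technical.

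TCP4, which promotes differentiation in leaves and petals and acts upstream of jasmonate synthesis, was the most abundant target in every library. It had 63.18 RPKM in GMUCT and 31.88 and 36.07 RPKM in RNA-seq. The GMUCT value lay above both RNA-seq libraries, and the log2 ratio of 0.89 (SE 0.106; limma adjusted p = 0.0149) was the only one past the test on the high side. It was 0.98 against RNA-seq library 1 and 0.80 against library 2. TCP4 stood at percentile 76.6 of the ratios of all tested genes. With the trend of the ratio with transcript length removed, its ratio was 1.17.

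TCP3, a repressor of the boundary genes that keep organs apart, lay on the other side. It had 15.56 RPKM in GMUCT and 25.76 and 25.64 RPKM in RNA-seq, a log2 difference of -0.01 between the RNA-seq libraries. Its log2 ratio was -0.71 (SE 0.051; limma adjusted p = 0.0076), at percentile 27.9 of all tested genes. A long noncoding RNA gene on the opposite strand, AT1G53233, overlaps 1525 bases of TCP3 in the annotation and has no value in the tables used here. How the counting treated strand is not given in the sources used here, so reads of that gene may be included.

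TCP2, which acts with TCP4 and others in leaf shape, had 14.73 RPKM in GMUCT and 12.08 and 12.23 RPKM in RNA-seq. GMUCT was above both RNA-seq libraries, but the log2 ratio of 0.27 (SE 0.063; limma adjusted p = 0.0502) just missed the threshold. It passed under 4 of 7 other settings that gave a test, with adjusted p between 0.00947 and 0.0579. TCP24, a repressor of secondary wall thickening in anthers, had 9.89 RPKM in GMUCT and 10.06 and 9.01 RPKM in RNA-seq. Its GMUCT value lay between the RNA-seq libraries, as for 4.80% of tested genes, and its log2 ratio was 0.05 (SE 0.111). TCP10, another CIN-type TCP of leaves and flowers, had 12.08 RPKM in GMUCT and 12.11 and 13.22 RPKM in RNA-seq and did not pass, at -0.06 (SE 0.092; limma adjusted p = 0.577). That sign turned to 0.06 when each library was centred on its median and to 0.07 with the length trend removed.

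MYB33, which acts with MYB65 in the tapetum, had the lowest GMUCT value of the 8. It had 3.13 RPKM in GMUCT and 6.52 and 5.63 RPKM in RNA-seq and was called lower, at -0.85 (SE 0.145; limma adjusted p = 0.0275) and percentile 23.0 of all tested genes. The call was lost with the length trend removed, at a log2 ratio of -0.44 (adjusted p = 0.0905), and without the filter on low values (adjusted p = 0.0596). Without RNA-seq library 1 the ratio was -0.76 and without library 2 it was -0.95.

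MYB65 carries the same 21-nt site as MYB33. It had 3.77 RPKM in GMUCT and 4.85 and 5.16 RPKM in RNA-seq. GMUCT was again below both RNA-seq libraries, but the log2 ratio of -0.37 (SE 0.108; limma adjusted p = 0.0759) did not pass. With the length trend removed it was -0.04 (limma adjusted p = 0.783). The opposite-strand gene AT3G11450 overlaps MYB65 by 47 bases and had 29.00 RPKM in GMUCT and 28.79 and 27.54 RPKM in RNA-seq.

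MYB101, which acts in pollen tubes with MYB97 and MYB120, was the most abundant of the 3 MYB genes. It had 6.94 RPKM in GMUCT and 11.01 and 10.17 RPKM in RNA-seq, so GMUCT was below both RNA-seq libraries. The log2 ratio was -0.57 (SE 0.096; limma adjusted p = 0.0269), at percentile 32.6 of all tested genes. It passed under all 7 other settings that gave a test, with adjusted p up to 0.0486.

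**Figure D3:**
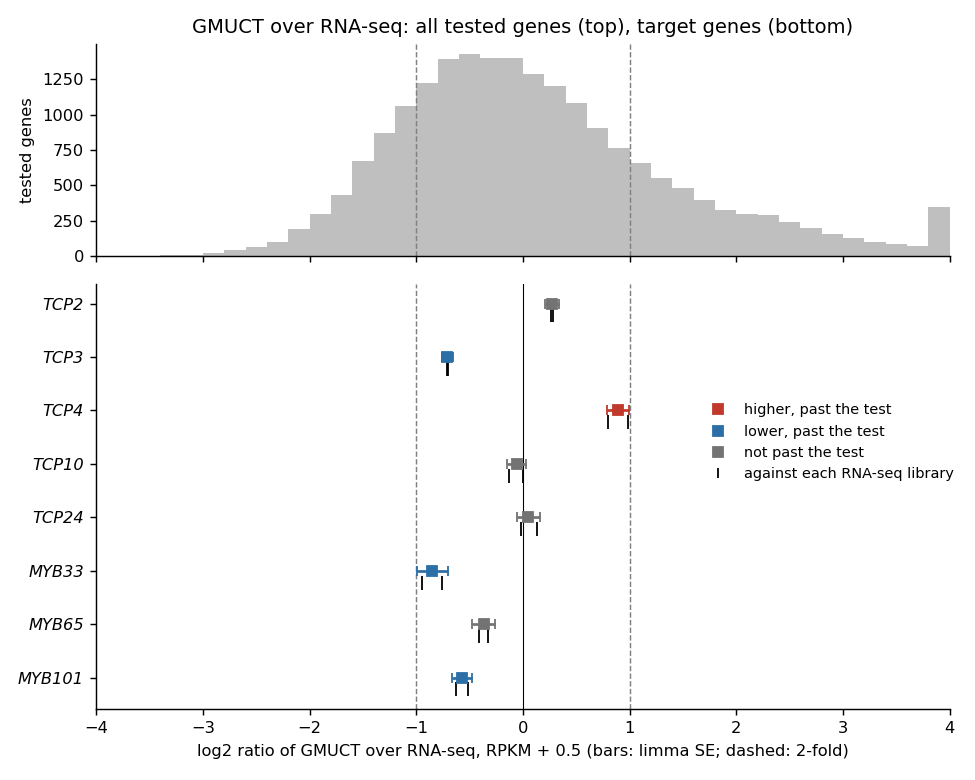
Top: number of tested genes by log2 ratio of GMUCT over RNA-seq (RPKM + 0.5), with values beyond the axis counted in the end bars. Bottom: the ratio of each target gene with its limma SE, coloured by the call, and black ticks for the ratio against each RNA-seq library; all 8 lie inside the dashed 2-fold lines, between -0.85 (MYB33) and 0.89 (TCP4).

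Because the ratios of TCP4 and TCP3 lay on opposite sides, the make-up of the TCP group differed between the assays. TCP4 gave 54.7% of the summed RPKM of the 5 TCP genes in GMUCT, against 34.7% and 37.5% in RNA-seq. TCP3 gave 13.5% in GMUCT, against 28% and 26.7% in RNA-seq. The shares of TCP2 were close, at 12.8% in GMUCT and 13.1% and 12.7% in RNA-seq. TCP4 exceeded TCP3 by 1.99 on the log2 scale in GMUCT, against 0.30 and 0.48 in RNA-seq, and their target sites differ by 1 base. The difference between the 2 ratios, 1.59, was not tested. The sum over the 5 TCP genes was 115 RPKM in GMUCT and 91.9 and 96.2 RPKM in RNA-seq.

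The MYB group kept its leading gene and had a lower sum, 13.8 RPKM in GMUCT against 22.4 and 21 RPKM in RNA-seq. MYB101 gave 50.1% of it in GMUCT and 49.2% and 48.5% in RNA-seq. MYB33 gave 22.6% in GMUCT and 29.1% and 26.9% in RNA-seq, and MYB65 gave 27.2% in GMUCT and 21.7% and 24.6% in RNA-seq. MYB33 was therefore below MYB65 in GMUCT, by 0.23 on the log2 scale (-0.23), and above it in RNA-seq, by 0.39 and 0.12. This change of order rests on 1 GMUCT library and small differences and was not tested. Of the 3 MYB genes 2 were called lower and none higher, with a median ratio of -0.57, beside 36.9% lower and 32.1% higher over all tested genes. With the length trend removed MYB101 alone of the 3 was called. Of the 5 TCP genes 1 was called in each direction, with a median of 0.05.

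**Figure D4:**
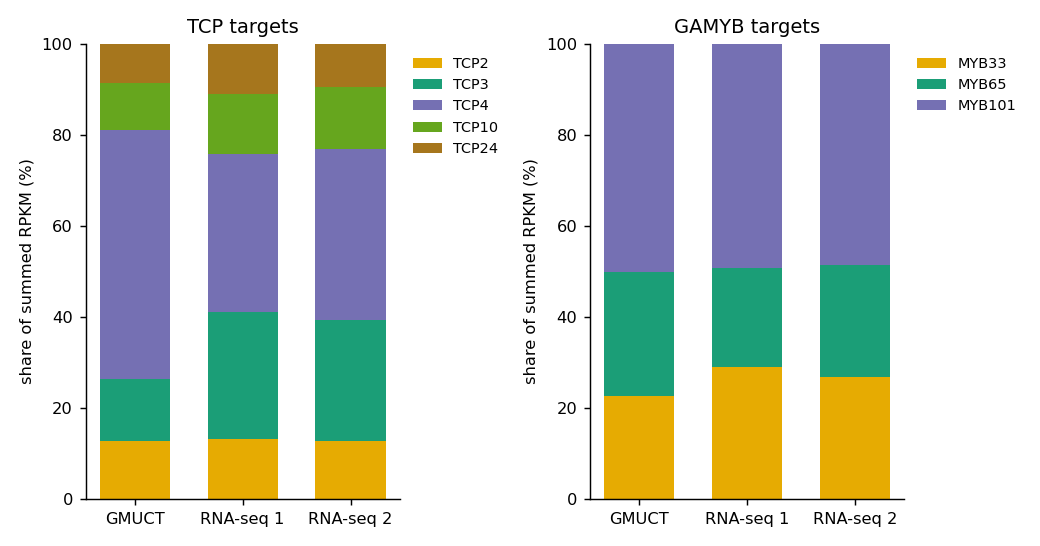
Share of each gene in the summed RPKM of the 5 TCP targets (left) and the 3 GAMYB targets (right), as a percentage, in the GMUCT library and in RNA-seq libraries 1 and 2. TCP4 takes 54.7% of the TCP sum in GMUCT and 34.7% and 37.5% in RNA-seq, and MYB101 takes 50.1% of the GAMYB sum in GMUCT and 49.2% and 48.5% in RNA-seq.

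The targets lay among the longer transcripts, and length moved with the ratio over all genes. Annotated exon lengths were 1759 nt (TCP24) to 2806 nt (MYB33), with 5 targets in the third and 3 in the longest of 4 equal groups of tested genes ordered by length. Median log2 ratios of these groups were 0.46, 0.10, -0.15 and -0.56 from shortest to longest. TCP4, at 2390 nt, was in the longest group, where 16.5% of genes were called higher and 55.4% lower. MYB33 and MYB65 (2521 nt) were in it too. The part of length in the ratio of a single target was not tested beyond the length-adjusted values given above.

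TCP5, TCP13 and TCP17 are CIN-type TCP genes outside the miR319 set, and their best windows scored 8.5, 7.5 and 6.0 against miR319a. TCP13 had 7.23 RPKM in GMUCT and 2.47 and 2.4 RPKM in RNA-seq (log2 ratio 1.4, limma adjusted p = 0.00766). TCP17 had 3.01 RPKM in GMUCT and 1.36 and 1.28 RPKM in RNA-seq (0.95, limma adjusted p = 0.0101). TCP5 had 1.45 RPKM in GMUCT and 0.63 and 0.87 RPKM in RNA-seq without passing (0.65, limma adjusted p = 0.0557). With an RNA-seq mean of 0.75 RPKM, TCP5 passed the filter on low values only through its GMUCT value, so its direction was fixed by the filter. The targeted genes had at least 9.01 RPKM in every library and the others at most 2.47 RPKM in RNA-seq. The difference in ratio between the groups was not tested.

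The branching-type genes TCP1, TCP12 and TCP18 were at most 0.92 RPKM in RNA-seq. They passed the filter on low values only through their GMUCT values of 2.69, 1.56 and 2.11 RPKM, so the direction of their ratios was fixed by the filter. Class I TCP genes, which largely favour growth, went both ways. Of 11 listed genes 10 were tested, of which 2 were called higher, 4 lower and 4 did not pass, beside 32.1% higher and 36.9% lower over all tested genes, with a median of -0.16. TCP20 had 10.62 RPKM in GMUCT and 4.54 and 3.91 RPKM in RNA-seq (log2 ratio 1.24), and TCP7 had 41.57 RPKM in GMUCT and 20.84 and 20.78 RPKM in RNA-seq (0.98). At the low end were TCP22, with 4.68 RPKM in GMUCT and 19.94 and 22.03 RPKM in RNA-seq (-2.05), and TCP19, with 5.46 RPKM in GMUCT and 13.95 and 14.36 RPKM in RNA-seq (-1.30). Both ends of the class I range, -2.05 and 1.24, lay beyond the range of the 8 targets.

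**Figure D5:**
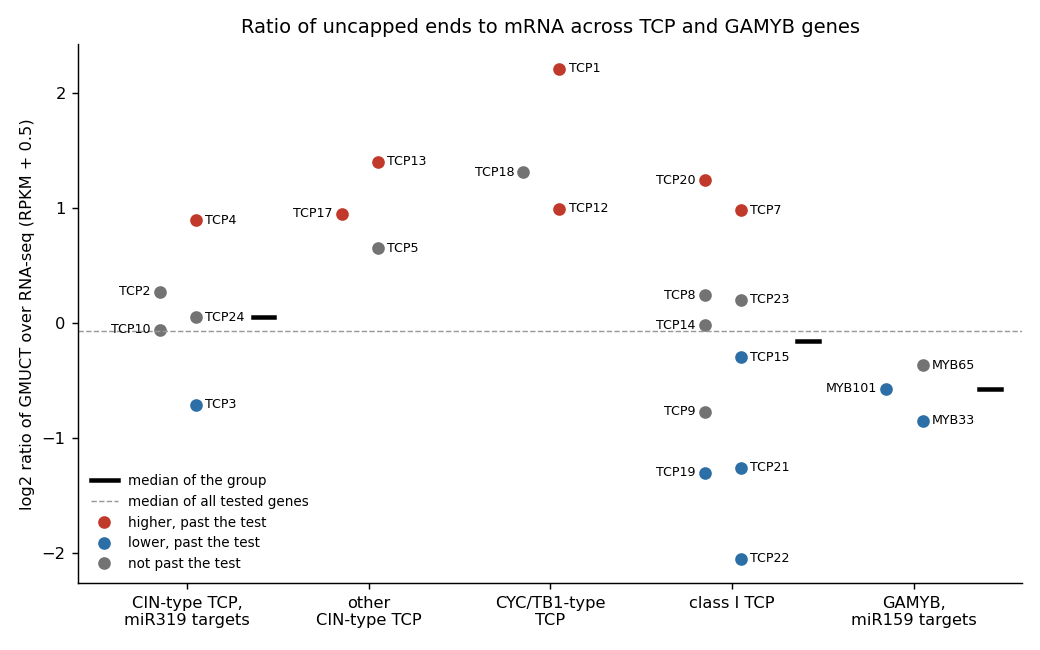
Log2 ratio of GMUCT over RNA-seq (RPKM + 0.5) of each tested TCP and GAMYB gene by group, coloured by the limma call; short black bars are medians of groups whose tested genes all average at least 1 RPKM in RNA-seq, and the dashed line is the median of all tested genes, -0.07. The miR319 targets centre on 0.05 and the GAMYB targets on -0.57, while TCP5 and the CYC/TB1-type genes were tested only through their GMUCT values.

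The remaining GAMYB-like genes and DUO1 were low in these inflorescences, and none passed the filter on low values. MYB81 had 0.53 RPKM in GMUCT and 1.5 and 1.03 RPKM in RNA-seq. Its RNA-seq mean was 1.27 RPKM, so it missed the filter through its low GMUCT value. DUO1, a regulator of sperm cell formation, had 0.59 RPKM in GMUCT and 0.57 and 0.43 RPKM in RNA-seq. MYB97, MYB104 and MYB120 had 0.59, 0.29 and 0.76 RPKM in GMUCT and 0.27, 0.07 and 0.03 RPKM in RNA-seq library 1, with no value in library 2. All 5 hold a window in the coding sequence that scored between 2.0 (MYB104 and DUO1) and 3.5 (MYB81, MYB97 and MYB120) against miR159a. The precursor genes of miR319 and miR159, 6 in all, have no value in the tables used here, which list 1 of the 326 microRNA genes of the annotation.

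Genes that act downstream of CIN-type TCPs were 7 tested of 8 listed, with 3 called higher and 1 lower, beside 32.1% and 36.9% over all tested genes, and a median of 0.26. SHY2, a repressor of auxin response, had 24.80 RPKM in GMUCT and 9.74 and 8.48 RPKM in RNA-seq (log2 ratio 1.4, limma adjusted p = 0.00941). The boundary genes were low: CUC3 had 3.29 RPKM in GMUCT and 1.74 and 1.77 RPKM in RNA-seq (0.75, called higher). CUC1 had 1.57 RPKM in GMUCT and 2.30 and 2.39 RPKM in RNA-seq (-0.46, called lower), a call lost after centring and without the filter. CUC2 had 4.76 RPKM in GMUCT and 5.15 and 5.66 RPKM in RNA-seq and did not pass. Downstream of GAMYB, the cysteine proteinase gene CP1 had 9.56 RPKM in GMUCT and 21.75 and 19.37 RPKM in RNA-seq (-1.06, limma adjusted p = 0.0113). LFY, the other gene of that list, missed the filter through its low GMUCT value, with an RNA-seq mean of 1.32 RPKM.

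Summed levels of markers of the anther tissues in which GAMYB genes act were lower in GMUCT, as was the sum of the MYB genes. The floral markers also summed lower, at 354 RPKM in GMUCT against 419 and 418 RPKM in RNA-seq. That drop was smaller than those of the tapetum and pollen sums given below, and AP3 went the other way. Single markers went both ways. Of 5 tapetum markers 3 were called lower and 1 higher, beside 36.9% and 32.1% over all tested genes, and their summed level was 69.6 RPKM in GMUCT against 184 and 189 RPKM in RNA-seq. The lowest ratio was that of ACOS5, with 10.86 RPKM in GMUCT and 65.26 and 71.76 RPKM in RNA-seq (log2 ratio -2.6). AMS, a tapetum regulator, had 23.54 RPKM in GMUCT and 62.42 and 59.95 RPKM in RNA-seq. MS1 was called higher, with 5.86 RPKM in GMUCT and 2.58 and 2.94 RPKM in RNA-seq, and MYB80 had 5.79 RPKM in GMUCT and 3.08 and 2.14 RPKM in RNA-seq without passing. Of 5 late pollen markers 3 were called lower and none higher, beside the same all-gene shares, with sums of 233 RPKM in GMUCT against 589 and 610 RPKM in RNA-seq. Most of the RNA-seq sum came from VGD1 and PPME1. VGD1 had 37.72 RPKM in GMUCT and 234.20 and 259.51 RPKM in RNA-seq. PPME1, which has a near-identical copy and an uncertain value, had 62.13 RPKM in GMUCT and 209.32 and 218.92 RPKM in RNA-seq. The lowest ratio of the pollen markers was that of RALF4, with 3.7 RPKM in GMUCT and 36.49 and 40.96 RPKM in RNA-seq (-3.22). AGP6, at 78.81 RPKM in GMUCT and 65.70 and 53.12 RPKM in RNA-seq, and AGP11, at 50.73 RPKM in GMUCT and 42.87 and 37.70 RPKM in RNA-seq, lay above both RNA-seq libraries without passing. Of 5 tested floral markers 4 were called lower and 1 higher, again beside 36.9% and 32.1% over all tested genes. Of the 4, PI lost its call after centring (limma adjusted p = 0.237) and in limma without the trend (adjusted p = 0.0703). The 1 tested root marker, COBL9, was not called. These values set uncapped ends against mRNA in whole inflorescences, so a lower GMUCT value does not measure how many cells of a type were present. Within either assay, fewer cells of a type and less RNA per cell cannot be told apart. The part of cell make-up or of the assay in the MYB values was not tested.

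Among tested genes outside these lists, those closest to the median profile of the TCP targets over the 3 libraries were AT3G03980 and AT2G20670, at Euclidean distances of 0.0495 and 0.0496 on the log2 scale. Those closest to the MYB targets were AT2G25350 and ATSAC1 (AT1G22620), at 0.0543 and 0.0657. AT3G03980 had 14.82 RPKM in GMUCT and 11.71 and 13.08 RPKM in RNA-seq, and AT2G25350 had 3.73 RPKM in GMUCT and 6.30 and 5.74 RPKM in RNA-seq.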

How the data were processed

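RNA-seq (2 libraries) and GMUCT (1 library) gave 1 RPKM value per gene, as deposited by the authors. The submitters' processing notes name cutadapt 1.4.2, STAR 2.4.0 and TAIR10. Not given in the sources used here are the counting tool, annotation release and treatment of strand and repeated matches. A gene missing from a table was taken as 0 RPKM.

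Genes with a mean of GMUCT and mean RNA-seq of at least 1 RPKM entered limma as log2(RPKM + 0.5), which shrinks the ratios of low genes; the test was two-sided (limma 3.58.1 in R 4.3.3, eBayes with trend, Benjamini-Hochberg adjustment). The procedure was tested on simulated data in which every library had the spread seen between the RNA-seq libraries. The simulation therefore cannot check the spread assumed for the single GMUCT library. Alternatives covered pseudocounts, filters, centring, trend, length, fold thresholds and leaving out each RNA-seq library. Count tests were not run on RPKM. Approximate depths came from low-value steps in a search up to 30000000 reads, so no counting intervals were made.

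Members and lists were chosen with earlier results of these data known. Of the listed genes TCP6, TCP11 and A9 were left out because the annotation did not pair the symbol with the identifier. Named genes were the members, all genes of the precursor, other CIN-type and GAMYB-like lists, the 2 highest and 2 lowest ratios of every other list, the 2 nearest profiles to each family, and DCL1. Other list genes enter as counts, except AP1, PPME1, WOX5, RHD6, EXP7 and LFY, which were chosen after their values were seen. Sites were sought without gaps in 1 TAIR10.1 transcript per gene, and sequences are from RefSeq (TAIR10.1). The submitters' build has another name, so coordinates are those of matches to TAIR10.1. BLAST 2.17.0 found no target with a copy of at least 95% identity over 50% of its length.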

Additional observations from a re-analysis of the deposited data

How the results depend on the processing

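The 4 calls of targets kept their direction under all alternatives, and TCP3, TCP4 and MYB101 passed in each setting that gave a test. MYB33 no longer passed after removal of the length trend or with every gene tested, and MYB33 and MYB65 fell below a filter at a mean of 5 RPKM. The number of targets called higher was 2 in place of 1 with a pseudocount of 0.1, without the filter, after centring and with the length trend removed, as TCP2 then passed. The number called lower was between 2 and 4, and MYB65 passed in limma without the trend (adjusted p = 0.0463). After removal of the length trend 1 target, TCP4, exceeded each RNA-seq library by 2-fold or more, and at 1.5-fold 1 was above and 2 were below. The TCP10 ratio turned to 0.06 after centring and 0.07 with the length trend removed, DCL1 turned to 0.04 and AGP11 to -0.25 with the length trend removed, and COBL9 turned to 0.03 and 0.14 under centring and length. The causes were not tested. Centring moved the median ratio of all tested genes to 0.05 from -0.07, and without the filter the all-gene counts were 9098 higher and 6325 lower, against 6489 and 7468. Leaving out an RNA-seq library leaves no residual degrees of freedom and gave values without a test, and the count of targets at least 2-fold from the remaining library was 0 on each side. No paired analysis was possible, because the label of the GMUCT library gives no replicate number and does not tie it to an RNA-seq library.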
